A study of Mus musculus with 5 samples.

Results

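The genes described here were chosen by a rule on measured values. Their TPM (a gene's length-corrected share of all transcripts, on the same total in each library) was higher in each of the 3 libraries taken 8 h after a sham exposure than in both libraries taken 1 h after it. TPM was summed over rows with the same gene identifier. A gene was a member where its mean TPM over the 5 libraries was at least 5 and its lowest 8 h TPM was at least 1.4 times its highest 1 h TPM. Names made of Gm and a number, names ending in Rik, microRNA genes and 7 genes set aside by name were left out. The rule held for 90 of 10257 genes that passed the level and name filters, from tables of 46078 genes. That share is 0.877% of the genes. The name filter removed 21 genes that otherwise met the rule. Acat3 entered only because 0 is at least 1.4 times 0. Its TPM was listed at 0 in both 1 h libraries and in 8 h replicate 13, at 17.1 in replicate 14 and at 33.5 in replicate 15. It was set apart, and the 89 members with a lowest 8 h value above 0 are described. Because the 8 h to 1 h contrast chose them, their values in that contrast are given as a description and carry no test.

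All 5 libraries were made from neural precursor cells (NPC) of adult C57BL/6 mice without a mutation, labelled female and aged 5 to 8 weeks. The study's methods give the substrain as C57BL/6j and an older age for its donors of these cells. The cells were grown as primary cultures of the subventricular zone, the neural stem cell niche lining the lateral ventricles, and were plated on poly-D-lysine. All received PBS as a sham exposure for 1 h (group 1 h, n = 2, replicates 1 and 2) or 8 h (group 8 h, n = 3, replicates 13, 14 and 15). These cultures served as PBS controls in a study of hydrogen peroxide, and exposed cells were not analysed here. The methods define a biological replicate of these cells as a separate animal, while the labels themselves tie no library to a single mouse.

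The libraries did not differ by time alone. The library identifiers form 2 number series, of which series 1 holds both 1 h libraries and 8 h replicate 14, and series 2 holds 8 h replicates 13 and 15. Series follow the labels, which the deposited read counts did not all match for the 8 h libraries, as given further on. Xist, the RNA that silences an X chromosome in female cells, was at 165 and 200 TPM in replicates 13 and 15 and at no more than 0.0611 TPM in the other 3 libraries. Summed TPM of Kdm5d, Uty, Ddx3y and Eif2s3y, genes of the Y chromosome, was 138 to 181 in the 3 libraries of series 1 and no more than 0.0253 in series 2, so the series 1 libraries go against the label female. The mitochondrial share of TPM was 10.7% to 11.1% in series 1 and 6.23% to 6.30% in series 2. In replicate 14, which shares its series and its sex-linked expression with the 1 h libraries, each member was by the rule still at least 1.4 times its highest 1 h value. Precursor markers (Sox2, Nes, Fabp7 and 11 others) were present in all libraries, summing to 11385 to 14591 TPM, and none of 6 microglial markers reached a mean of 1 TPM. Astrocyte markers summed to 910 to 1037 TPM in series 1 and to 1377 and 1395 TPM in replicates 13 and 15. A TPM at or over 1 was reached by 13681 to 13967 genes, depending on the library. In such bulk samples, fewer cells of a type and less RNA per cell cannot be told apart. The part of sex, series and marker levels in the results below was not tested.

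The members come from many families. Immediate early genes such as Ier3 are induced within minutes of a growth factor or a stress, and Sprouty and Nab proteins are feedback inhibitors of the same pathways. Hsp70 chaperones fold new proteins, and RNA and chromatin enzymes act in every cell. Many zinc finger genes of the Zfp, Zscan and Zkscan names belong to the largest family of DNA-binding proteins in the mouse genome. Many of them carry a KRAB domain, which recruits the corepressor Trim28, and bind transposable elements, while the SCAN domain of the Zscan and Zkscan proteins joins them into dimers.

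The promoters below belong to the 5 members with the largest ratio of lowest 8 h to highest 1 h TPM among those with a promoter in the RefSeq table (GRCm38.p6). They are shown because they belong to the widest gaps between the groups. RefSeq's start lay 3745 bases from the 5′ end of the member's gene model for Pagr1a and 410 bases from it for Mapkapk5. For both it lies at or near the start of another model of the same name, so these windows may not be the promoter of the member's model. It lay within 25 bases for the other 3. Each of the 5 windows runs 5′ to 3′ on the strand of the gene, from 250 bases before the annotated start to 50 bases after it. Capitals mark matches, on either strand, to any of 12 short motifs, and in these windows no match overlapped another. The motifs for basic helix-loop-helix and leucine zipper factors were the E-box (CACGTG), the cyclic AMP element (TGACGTCA), the AP-1 site (TGANTCA), the ATF4-CEBP site (TGATGCAA) and the D-box (TTACGTAA). Those for other factors were the core of nuclear receptor sites (AGGTCA), the TEAD site (GGAATG), the E2F site (TTTCGCGC) and the heat shock element (GAANNTTC). The general promoter elements were the NF-Y site (CCAAT), the TATA box (TATAAA) and the GC box (GGGCGG). Pagr1a lies at chr7:127017303-127017602, minus strand, Mapkapk5 at chr5:121545843-121546142, minus strand, Tnfsf18 at chr1:161494407-161494706, plus strand, Rsl1 at chr13:67172932-67173231, plus strand and Rpp38 at chr2:3332579-3332878, minus strand.
Pagr1a: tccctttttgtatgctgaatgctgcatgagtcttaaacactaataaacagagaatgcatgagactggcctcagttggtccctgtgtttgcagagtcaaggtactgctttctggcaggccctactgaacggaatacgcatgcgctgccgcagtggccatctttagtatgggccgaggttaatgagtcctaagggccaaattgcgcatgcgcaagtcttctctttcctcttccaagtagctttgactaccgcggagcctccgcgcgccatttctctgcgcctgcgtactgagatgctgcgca
Mapkapk5: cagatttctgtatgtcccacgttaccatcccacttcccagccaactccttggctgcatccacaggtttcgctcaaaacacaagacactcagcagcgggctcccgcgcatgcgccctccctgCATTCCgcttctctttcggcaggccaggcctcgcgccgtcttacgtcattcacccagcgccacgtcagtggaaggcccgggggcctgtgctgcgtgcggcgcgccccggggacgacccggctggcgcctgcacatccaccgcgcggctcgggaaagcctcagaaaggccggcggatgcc
Tnfsf18: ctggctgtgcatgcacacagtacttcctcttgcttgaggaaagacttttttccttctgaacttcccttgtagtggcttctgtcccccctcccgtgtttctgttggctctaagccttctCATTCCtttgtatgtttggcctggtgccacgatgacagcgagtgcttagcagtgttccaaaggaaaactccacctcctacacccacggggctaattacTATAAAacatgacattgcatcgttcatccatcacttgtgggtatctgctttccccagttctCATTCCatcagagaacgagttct
Rsl1: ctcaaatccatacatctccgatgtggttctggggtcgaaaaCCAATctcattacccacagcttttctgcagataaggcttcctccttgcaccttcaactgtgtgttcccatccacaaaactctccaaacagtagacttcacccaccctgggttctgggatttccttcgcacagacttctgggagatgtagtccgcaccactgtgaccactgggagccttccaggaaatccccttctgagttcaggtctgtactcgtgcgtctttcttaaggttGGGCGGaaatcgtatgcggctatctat
Rpp38: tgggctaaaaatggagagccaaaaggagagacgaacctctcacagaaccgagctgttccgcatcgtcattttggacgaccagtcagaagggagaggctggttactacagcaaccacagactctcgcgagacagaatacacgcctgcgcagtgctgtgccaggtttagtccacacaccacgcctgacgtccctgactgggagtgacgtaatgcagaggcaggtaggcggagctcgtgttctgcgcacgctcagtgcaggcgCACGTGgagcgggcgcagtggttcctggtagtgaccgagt

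The Pagr1a window held none of the motifs, and the Mapkapk5 window held a single TEAD match, read on the opposite strand. Tnfsf18 had a TATA box a short way before its start and a TEAD match on either side of it. In Rsl1 a CCAAT and a GC box were found, and in Rpp38 an E-box just after the start. The G and C content of these windows ran from 48.0% in Tnfsf18 to 66.0% in Mapkapk5. No motif was shared by more than 2 of the 5. A match says only that the letters are there.

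Over all members with a promoter in the table (73 of 89), motif shares were set beside those of the 7852 expressed genes (mean TPM at or over 5) that have one. CCAAT was in 38.4% of the members' promoters and in 39.3% of those of the expressed genes (37.4% of all 32851 promoters in the table). An E-box was in 9.59% against 10.5% (7.15% of all promoters), and the nuclear receptor core in 11.0% against 10.8% (16.3%). A GC box was in 58.9% against 69.0% (35.7%), and a TEAD match in 17.8% against 11.4% (14.7%). The heat shock element was in 6 promoters (8.22%, against 5.39% and 7.86%), those of Ahdc1, Chordc1, Leng1, Mtrr, Tmem186 and Zfp189. AP-1 and cyclic AMP element matches were in 2 promoters each (2.74%), against 4.02% and 3.55% of the expressed genes and 7.81% and 1.79% of all promoters. A TATA box was in 3 (4.11%, against 5.97% and 13.6%). An E2F match was in the Nthl1 promoter alone (1.37%, against 0.675% and 0.323%). ATF4-CEBP (0.509% of expressed genes and 0.895% of all promoters) and D-box letters (0.204% and 0.119%) were in none of the 73 windows. None of these differences was tested.

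Most members were genes of modest level with a modest gap. Their mean TPM ranged from 5.02 to 2713 with a median of 13.1, against 31.9 over all genes tested, and 60 of 89 stayed under 20 TPM. The ratio of mean TPM at 8 h to mean TPM at 1 h ran from 1.51 to 6.52, with a median of 1.78. On the log2 scale that median was 0.83, against 0.11 over all genes tested. Dividing TPM by median-ratio size factors moved the median of all genes to 0.00 and that of the members to 0.72. The lowest 8 h value was at least 2 times the highest 1 h value in only 5 members, and under 1.5 times in 37. Relative to the mean 1 h level, the median member was at 1.82 in replicate 13, 1.65 in replicate 14 and 1.88 in replicate 15, where the median of all genes was 1.11, 1.01 and 1.11.

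**Figure D1:**
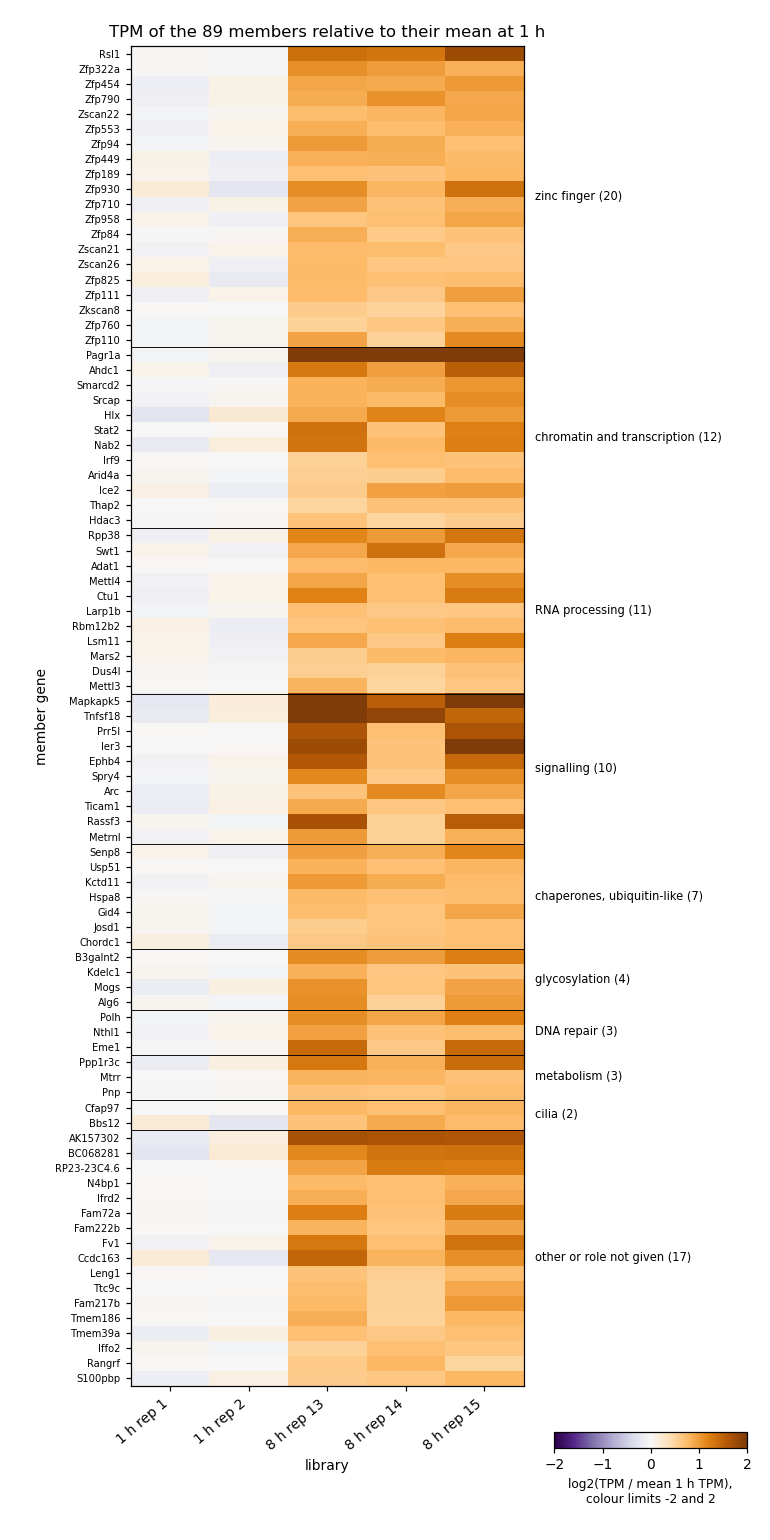
Each row is 1 of the 89 members and each column 1 library, and the colour gives log2 of TPM over the gene's mean 1 h TPM, with colours ending at -2 and 2. Both 1 h columns stay near white and all 3 8 h columns are orange, palest for most genes in replicate 14, whose median was 1.65 against 1.82 and 1.88 in the other 8 h libraries.

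In what follows, values in a series of 5 are TPM in 1 h replicates 1 and 2 and then 8 h replicates 13, 14 and 15. Pagr1a, part of the histone H3 lysine 4 methyltransferase complexes built on Kmt2c and Kmt2d, had the widest gap. It measured 2.63 and 2.86 TPM at 1 h and 20.1, 14.3 and 19.4 TPM at 8 h, a mean of 17.9 ± 3.19 (SD, n = 3) against 2.75 ± 0.164 (SD, n = 2). AK157302, a gene model of unknown role, measured 2.66, 3.35, 9.60, 9.38 and 9.25 TPM. Its 3 8 h libraries were nearly identical, and each was above both 1 h libraries by at least 2.76 times. Mapkapk5 is a kinase downstream of p38 and atypical MAP kinases. The member, a less abundant gene model of that name, was at 1.76, 2.30, 14.6, 5.84 and 8.61 TPM, so its 8 h libraries spread widely. Tnfsf18, the ligand of the costimulatory receptor GITR, was at 2.11, 2.68, 9.82, 8.52 and 6.59 TPM, with its lowest 8 h value in replicate 15. Rsl1, a KRAB zinc finger repressor first known from control of liver genes, was at 2.46, 2.37, 6.19, 5.93 and 8.15 TPM. These were the 5 members whose lowest 8 h value reached 2 times the highest 1 h value. AK157302 and Mapkapk5 share their strand with other gene models, and the TPM summed over either locus overlapped between the groups, as given further on.

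The next 10 had ratios of lowest 8 h to highest 1 h TPM between 1.74 and 1.97. B3galnt2, a glycosyltransferase that acts on alpha-dystroglycan, was at 5.63, 5.56, 12.1, 11.1 and 13.1 TPM. Its 1 h values lay close together, and no 8 h value came near them. BC068281 measured 2.68, 3.65, 7.04, 7.93 and 8.05 TPM, and the unconfirmed model RP23-23C4.6, the only member not annotated as protein-coding, 2.99, 3.05, 5.79, 7.24 and 7.07 TPM. Polh, the DNA polymerase that copies past ultraviolet damage, was at 9.73, 10.4, 21.6, 19.2 and 23.3 TPM. Swt1, an RNA endonuclease of the nucleus, was at 5.91, 5.37, 10.6, 14.4 and 10.6 TPM, highest in replicate 14. The remaining 5 (Rpp38, Ahdc1, Zfp322a, Smarcd2 and Zfp454) are given with their groups below.

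**Figure D2:**
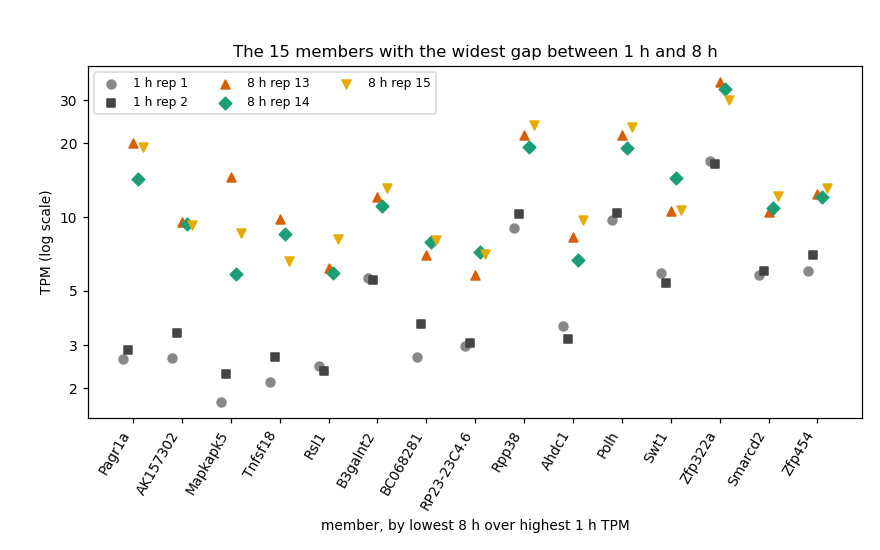
Points give TPM on a log axis in each of the 5 libraries for the 15 members with the largest ratio of lowest 8 h to highest 1 h TPM. The 1 h points of Pagr1a lie at 2.63 and 2.86 TPM and its 8 h points at 14.3 to 20.1 TPM, and no 8 h point of any gene overlaps its 1 h points.

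Zinc finger genes were the largest group by role, with 20 of 89 members. Roles were assigned after the names of the members were known. Of them, 15 belong to the list of all genes named Zfp and a number. The list goes by name alone, so genes such as Zfp36 and Zfp335os are in it whatever they encode. That list had 258 genes tested, so 5.81% of it met the rule, against 0.877% of all genes, and it made up 16.9% of the members against 2.52% of the genes tested. The remaining 5 were Zscan21, Zscan22, Zscan26, Zkscan8 and Rsl1. The list as a whole lay to the same side. This is a description only, since the 15 genes chosen on this contrast count in every list value given here. With the members included, 123 of the 258 (47.7%) were higher in every 8 h library than in both 1 h libraries, against 25.5% of all genes, and 20 (7.75%) were lower in every 8 h library, against 8.9%. The median log2 ratio over the list was 0.23, against 0.11 over all genes, and after median-ratio scaling 0.13 against 0.00. With that scaling 93 list genes (36.05%) were higher in every 8 h library, against 16.55% of all genes. In series 1 alone, replicate 14 is the only 8 h library. There 152 of 250 list genes (60.8%, members included) were higher at 8 h, against 39.2% of all genes. Without replicate 14 the lead was smaller, with 156 of 257 list genes (60.7%) higher at 8 h, against 50.7% of all genes. The list's weight among genes meeting the rule depended on replicate 14. Without it 1035 genes met the rule and 31 of them (3.00%) were of the list, whereas without replicate 13 or 15 the list held 16.4% of 116 and 16.3% of 104 genes.

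**Figure D3:**
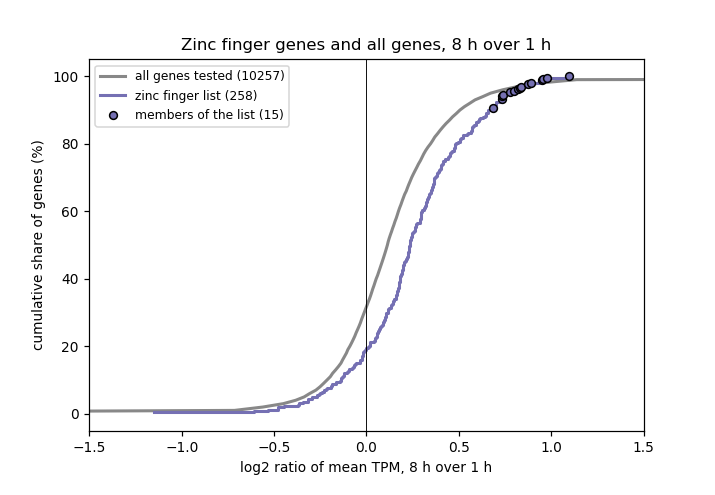
Curves give the cumulative share of genes, in percent, by log2 ratio of mean TPM at 8 h over 1 h for all 10257 genes tested and for the 258 genes of the zinc finger list, and filled points mark the 15 members. The list's curve lies to the right of that of all genes, with medians of 0.23 and 0.11.

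The 8 h libraries of the zinc finger members had a median range of 0.22 on the log2 scale, close to the 0.23 of all genes higher in every 8 h library. The range ran from 0.06 in Zfp825 to 0.59 in Zfp110, which was at 16.9, 17.7, 33.5, 25.1 and 37.9 TPM. Zfp322a was at 17.02, 16.5, 35.6, 33.4 and 30.1 TPM, a mean of 33.0 ± 2.78 (SD, n = 3) against 16.8 ± 0.376 (SD, n = 2). Zfp454 was at 6.02, 6.99, 12.4, 12.1 and 13.2 TPM, and Zfp790 at 5.29, 6.06, 10.5, 11.9 and 10.7 TPM. In Zfp454 replicate 14 lay close to the other 8 h libraries, and in Zfp790 it lay above both. Zfp553 measured 14.9, 16.6, 28.5, 26.4 and 28.3 TPM. Zscan21, at 31.9, 35.5, 56.9, 56.3 and 52.5 TPM, had the highest level of the group, but in the count table its 8 h columns overlapped the 1 h columns. Zfp825 was at 9.80, 7.77, 15.0, 14.3 and 14.7 TPM, with 8 h libraries closer together than its 1 h libraries. Beside Rsl1, at a log2 ratio of 1.49, the other 13 (Zfp84, Zfp94, Zfp110, Zfp111, Zfp189, Zfp449, Zfp710, Zfp760, Zfp930, Zfp958, Zscan22, Zscan26 and Zkscan8) lay between 0.62 and 1.10. Promoters of the zinc finger members (18 in the table) held CCAAT in 9, a GC box in 7 (38.9%) and no E-box, where the promoters of the whole list (210) held them in 47.6%, 47.6% and 6.19%.

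Several zinc finger members were neighbours. Chromosome 7 held 12 members, 8 of them zinc finger genes, and chromosome 13 held 8, of which 5 were zinc finger genes. These chromosomes carried 13.5% and 8.99% of the members, against 7.41% and 3.50% of the genes tested. On chromosome 7, Zfp110 and Zscan22 lay 47238 bases apart, Zfp84 and Zfp790 36251 bases apart, and Zfp111 and Zfp94 90261 bases apart. On chromosome 13, Zscan26 (21442175 to 21453730), AK157302 (21495223 to 21497146) and Zkscan8 (21513222 to 21531120) followed each other. Zinc finger genes of such clusters share sequence, so reads may be split among near-identical copies.

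Chromatin and transcription proteins made up 12 members. Ahdc1, an AT-hook DNA-binding protein, was at 3.61, 3.17, 8.32, 6.71 and 9.77 TPM. Smarcd2, a subunit of the BAF chromatin remodeller, was at 5.80, 6.04, 10.5, 10.9 and 12.2 TPM. Replicate 14 did not stand below the other 8 h libraries in Smarcd2, and it did in Ahdc1. Nab2, a corepressor of the Egr factors, was at 37.3, 47.0, 105, 71.9 and 98.3 TPM. Egr1 itself, an immediate early gene that is no member, was at 43.8, 54.7, 128, 53.0 and 171 TPM, so that replicate 14 lay among the 1 h libraries and only replicates 13 and 15 were above them. Stat2, at 3.80, 3.86, 9.80, 6.14 and 8.88 TPM, and Irf9, at 5.34, 5.32, 7.81, 8.82 and 8.57 TPM, act in the response to type I interferon. In both, every 8 h library lay above both 1 h libraries, and replicate 14 was the lowest of the 8 h libraries in Stat2 and the highest in Irf9.

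Hdac3, the deacetylase of the NCoR corepressor complex, lay just inside the threshold at 85.3, 87.9, 138, 124 and 131 TPM, a ratio of lowest 8 h to highest 1 h of 1.41 that was 1.01 in the matched columns of the count table. The related Hdac1 was at 147, 142, 178, 155 and 180 TPM, and Hdac2 at 222, 177, 223, 219 and 198 TPM, the latter with overlapping groups. Srcap, the remodeller that deposits the histone variant H2A.Z, was at 15.0, 16.4, 28.03, 26.8 and 33.6 TPM, with another model of the same name that was lower at 8 h. The remaining 5 (Hlx, Arid4a, Ice2, Thap2 and Pagr1a) had log2 ratios from 0.64 to 2.71. Of a list of 45 other chromatin regulators, 43 were tested, 8 (18.6%) were higher in every 8 h library and 7 (16.3%) lower, against 25.5% and 8.9% of all genes.

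RNA processing and modification took 11 members, of which 5 (Rpp38, Adat1, Ctu1, Dus4l and Mars2) act on tRNA. Rpp38, a protein subunit shared by RNase P and RNase MRP, was at 9.0025, 10.3, 21.6, 19.4 and 23.8 TPM. Adat1, which deaminates adenosine in a tRNA anticodon loop, was at 4.05, 4.02, 6.80, 6.97 and 6.96 TPM. Within either group the values of Adat1 were nearly the same, and it had the narrowest 8 h range of all members (0.03 on the log2 scale). Larp1b, an RNA-binding protein, was at 6.41, 6.96, 10.9, 10.4 and 10.5 TPM, and Rbm12b2 at 11.4, 9.57, 16.6, 17.2 and 17.7 TPM. Mettl3, the catalytic subunit of the m6A methyltransferase, was at 25.9, 25.9, 45.7, 36.9 and 40.6 TPM. Its partner Mettl14 was at 17.2, 23.9, 29.7, 23.2 and 31.3 TPM, with overlapping groups. The others, Swt1, Mettl4, Ctu1, Lsm11, Mars2 and Dus4l, had log2 ratios from 0.60 to 1.08. Of 40 genes tested in the list of core splicing and processing factors 0 met the rule, where 0.877% of all genes did, and 7 of the list (17.5%) were higher in every 8 h library, against 25.5%.

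Signalling genes had the largest median log2 ratio of mean TPM of any role with more than 3 members, and the widest 8 h spread. The median log2 ratio of these 10 members, which include the Mapkapk5 model at 2.25, was 1.31, against 0.83 over all members. Their median level relative to 1 h was 2.95 in the mean of replicates 13 and 15 and 1.61 in replicate 14, and replicate 14 was lowest in 8 of 10. In replicate 14 that median was 1.66 for zinc finger and 1.71 for chromatin and transcription members, and 1.58 for glycosylation enzymes. The lead of the signalling genes was thus seen in replicates 13 and 15 and not in replicate 14. Rassf3, a Ras association domain protein, was at 55.8, 51.9, 171, 79.5 and 159 TPM. Ier3, an immediate early gene, was at 9.92, 10.1, 33.8, 16.1 and 40.03 TPM. Prr5l, a protein associated with mTOR complex 2, was at 16.5, 16.4, 50.8, 27.2 and 51.5 TPM. In these 3 genes replicates 13 and 15 lay close together, and replicate 14 lay between them and the 1 h libraries. Ephb4, a receptor tyrosine kinase for ephrin-B2, was at 3.76, 4.16, 11.8, 6.36 and 10.7 TPM.

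Spry4, a feedback inhibitor of receptor tyrosine kinase signalling, was at 54.8, 57.3, 125, 85.8 and 121 TPM. The related Spry1, at 72.4, 82.7, 146, 98.4 and 144 TPM, and Spry2, at 161, 166, 231, 187 and 225 TPM, had the same order of libraries without reaching the threshold. Arc, an activity-regulated gene of neurons, ran the other way among the 8 h libraries, with 8.48, 9.82, 14.6, 20.1 and 17.4 TPM and its highest value in replicate 14. The 8 neuron markers summed to 294, 288, 221, 480 and 250 TPM, also highest in replicate 14, and their part in the level of Arc was not tested. Metrnl, a secreted factor, and Ticam1, the adaptor of Toll-like receptor 3, had log2 ratios of 0.82 and 0.76. The list of growth factor receptors, ligands and feedback genes had 31 genes tested, of which 6 (19.4%) were higher in every 8 h library, against 25.5% of all genes, and Spry4 alone met the rule. In the immediate early list, 5 of 18 (27.8%) were higher and 3 (16.7%) lower, near the 25.5% and above the 8.9% of all genes, and Ier3 alone met the rule.

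Chaperones and ubiquitin-like modifiers gave 7 members, with a median 8 h range of 0.13 on the log2 scale against 0.27 over all members, and single ranges up to 0.29 in Senp8. Hspa8, the constitutive Hsp70 chaperone, was by far the most abundant member. It measured 1961 and 1902 TPM at 1 h and 3312, 3151 and 3241 TPM at 8 h, a mean of 3235 ± 80.9 (SD, n = 3) against 1931 ± 42.0 (SD, n = 2). Without it the members summed to 1157 and 1178 TPM at 1 h and to 2272, 1920 and 2288 TPM at 8 h. Chordc1, a cochaperone of Hsp90, was at 43.9, 36.2, 62.3, 64.1 and 66.6 TPM. Other heat shock genes differed less. Hsp90aa1, the Hsp90 that Chordc1 works with, was at 597, 588, 595, 691 and 860 TPM, with overlapping groups. Hsph1, the nucleotide exchange factor of Hsp70, was at 132, 115, 150, 170 and 165 TPM, and Dnajb1, a J-domain partner, at 41.5, 44.9, 47.0, 50.4 and 48.2 TPM. The stress-inducible Hspa1a and Hspa1b stayed between 0.822 and 2.95 TPM in all libraries. In the list of chaperones and heat shock genes, 68 were tested, 23 (33.8%) were higher in every 8 h library and 3 (4.41%) lower, against 25.5% and 8.9% of all genes. Hspa8 alone met the rule (1.47% of the list, against 0.877%).

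Usp51, a deubiquitinase of histone H2A encoded on the X chromosome, was at 5.24, 5.23, 9.39, 8.59 and 9.18 TPM, and the other X-linked member, Zfp449, at 5.33, 4.58, 8.94, 9.04 and 8.44 TPM. In neither did the libraries with Xist stand apart from replicate 14. The rule required a high value in replicate 14, so nothing about sex is read from this. Senp8, which removes the ubiquitin-like Nedd8, Kctd11 and Gid4, substrate adaptors of ubiquitin ligases, and Josd1, a deubiquitinase, had log2 ratios from 0.65 to 1.01. Of 79 proteasome and ubiquitin-specific protease genes tested, 12 (15.2%) were higher in every 8 h library and 11 (13.9%) lower, against 25.5% and 8.9% of all genes.

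The smaller groups followed the same range. Glycosylation enzymes (B3galnt2, Mogs, Alg6 and Kdelc1) had log2 ratios from 0.73 to 1.11, each lowest in replicate 14 among the 8 h libraries. Of the 3 DNA repair members, Polh was the only gene of the repair list. Nthl1, a base excision glycosylase, had a log2 ratio of 0.81, and Eme1, a partner of the nuclease Mus81, was at 4.68, 4.85, 12.6, 7.41 and 12.9 TPM. Polk, at 13.9, 11.1, 16.5, 19.6 and 17.03 TPM, and Poli, at 4.84, 3.94, 6.15, 5.72 and 6.56 TPM, also translesion polymerases, were higher in every 8 h library too. In the repair list, 16 of 33 (48.5%) were higher and 0 were lower in every 8 h library, against 25.5% and 8.9% of all genes. Ppp1r3c, which directs protein phosphatase 1 to glycogen, was at 19.97, 24.1, 53.7, 39.6 and 58.2 TPM, and Pnp, purine nucleoside phosphorylase, at 13.6, 14.1, 22.1, 21.9 and 23.2 TPM. Cfap97 was at 8.81, 8.83, 15.2, 14.6 and 15.4 TPM. Among members with other or unassigned roles, N4bp1, an inhibitor of NF-kappaB signalling with a ribonuclease domain, was at 27.4, 27.0, 46.6, 45.2 and 49.2 TPM, Tmem39a at 16.5, 19.9, 29.9, 28.3 and 30.3 TPM, and Iffo2 at 34.5, 32.6, 48.7, 55.4 and 53.0 TPM. Another 11 (Rangrf, Leng1, S100pbp, Tmem186, Ttc9c, Fam217b, Fam222b, Ifrd2, Fam72a, Ccdc163 and the retrovirus restriction gene Fv1) had log2 ratios from 0.65 to 1.14.

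Many members sat near the threshold. Just inside it, with ratios up to 1.41, were Hdac3, Rangrf (22.5, 22.0, 34.3, 38.5 and 31.6 TPM), S100pbp (24.1, 28.3, 39.8, 41.3 and 45.5 TPM) and Bbs12, a chaperonin-like protein of the primary cilium (8.20, 6.13, 11.5, 13.4 and 12.2 TPM). Just outside it, with ratios of at least 1.39, were Ttc21b (6.42, 5.99, 11.1, 8.98 and 12.3 TPM), Pbx2 (16.8, 17.7, 32.6, 24.8 and 25.7 TPM), Acss2 (55.0, 59.3, 125, 82.7 and 98.1 TPM) and Zfp324 (5.38, 6.25, 10.1, 8.72 and 10.2 TPM). In these 4, replicate 14 was the lowest 8 h library.

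Replicate 14 was the lowest 8 h library in 57 of 89 members (64.0%). This share is a description only, since the rule used all of the 8 h libraries and the members come from the same libraries. The same held for 55.9% of all genes tested and for 68.2% of the 2614 genes higher in every 8 h library. After median-ratio scaling the share of members fell to 37.1%, and with FPKM it was 46.1%, so the position of replicate 14 below the other 8 h libraries depended on the scaling. The share over all genes was not computed in these settings, so members and all genes cannot be compared there. The median range over the 8 h libraries was 0.27 on the log2 scale in the members and 0.31 over all genes.

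The 5 libraries can be divided into 2 and 3 in 10 ways. The rule, applied to each, gave as many genes as the division into 1 h and 8 h in 2 of the 10, that division included (90 genes). With replicates 13 and 15 as the lower pair, against the 1 h libraries and replicate 14, 176 genes met it. The remaining 8 divisions gave from 2 to 62 genes. Since replicates 13 and 15 form series 2, time and series are partly mixed in the 8 h group. The mirrored rule, with the highest 8 h TPM at most the lowest 1 h TPM divided by 1.4, held for 35 genes (0.341%).

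A total of 14 members overlapped another gene model on the same strand that had a TPM above 0 in some library, and for these the sum over the locus is given too. At the AK157302 locus the overlapping model AL589742.1 (chromosome 13, 21495306 to 21495695) was at 6.53, 6.73, 0.536, 0.464 and 0.694 TPM. The locus summed to 9.20, 10.1, 10.1, 9.84 and 9.95 TPM, so that the groups overlapped. At Mapkapk5 the member (ENSMUSG00000105340, chromosome 5, 121518613 to 121545482) shared its strand with a more abundant model of the same name (ENSMUSG00000029454, 121525038 to 121545905) at 49.6, 80.2, 32.6, 49.98 and 76.0 TPM. With Adam1a and Gm15547, which also overlap the member, its locus summed to 56.6, 86.8, 51.1, 59.3 and 88.7 TPM, again with overlapping groups. At Srcap a model of the same name (ENSMUSG00000107023) was at 26.3, 25.2, 15.6, 20 and 16.8 TPM, lower in every 8 h library, and the sum ran 44.6, 43.3, 49.5, 51.0 and 52.7 TPM. The lowest 8 h sum was then 1.11 times the highest 1 h sum.

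At Pagr1a (ENSMUSG00000107068, chromosome 7, 127015051 to 127021097) the sum kept the gap. A shorter model of the same name was under 1 TPM in all libraries. The overlapping Pagr1b (ENSMUSG00000092534, chromosome 7, 127001480 to 127016484) was at 2.21 and 1.51 TPM at 1 h and listed at 0 in all 8 h libraries, and the locus summed to 5.21, 4.83, 21.0, 15.2 and 19.7 TPM, with a lowest 8 h sum 2.92 times the highest 1 h sum. In all, the sum fell below 1.4 in 8 of the 14, which also included Leng1, Irf9, Pnp, Iffo2 and Ccdc163 at 1.30 to 1.39. With such sums 81 of the 89 still met the ratio of 1.4.

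**Figure D4:**
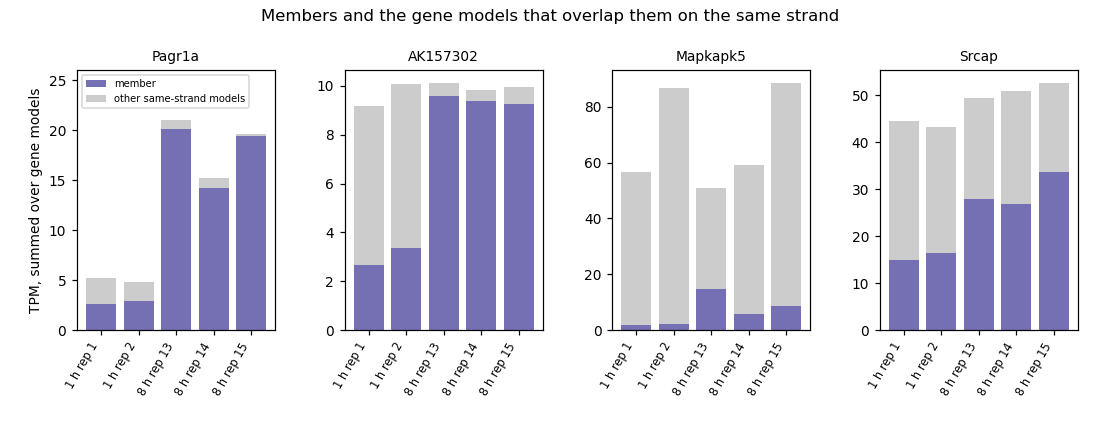
Stacked bars give TPM in the 5 libraries for 4 members (purple) and for the other gene models that overlap them on the same strand (grey), each panel on its own axis from 0. The purple part is larger in every 8 h library, while the full bar stays level at AK157302 (9.20 to 10.1 TPM), overlaps between groups at Mapkapk5 and is higher at 8 h at Pagr1a and, by at least 1.11 times, at Srcap.

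The count table, which lists 7599 genes, gave a further view of 36 members. It is given as CPM (counts scaled to a common total per column), and the totals ran from 13988166 to 18572154 counts. By gene values the columns did not all match the TPM tables of the same name. The values do not tell whether the columns or the TPM tables carry the wrong names. Of 6860 genes compared after centring, 78.0% differed by less than 0.1 on the log2 scale between a 1 h column and the TPM table of the same name. For the column named 8 h replicate 13 the closest table was that of replicate 14 (78.3%), and for that named replicate 15 it was that of replicate 13 (76.9%). The column named replicate 14 matched no table, with at most 38.2%. Columns and TPM tables were kept under their names, so the number series given for each 8 h TPM table holds only if its name is right. The results are given with and without the unmatched column.

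In the 2 matched 8 h columns, 35 of the 36 members lay above both 1 h columns, against 22.7% of the 6669 expressed genes of the count table, and 18 lay at least 1.4 times above the higher of them, against 0.45%. These columns share their reads with TPM tables the rule used, so this is the same measurement counted another way. The exception was Zscan21, at 85.5 and 77.8 CPM at 1 h and 95.4 and 84.1 CPM in the matched 8 h columns. Hdac3 was at 173 and 180 CPM at 1 h and at 182 and 183 CPM in the matched columns, a ratio of 1.01 where its TPM gave 1.41. Hspa8 kept its gap, with 3337 and 3059 CPM against 5073 and 4949 CPM, and so did Polh, with 19.0 and 20.9 CPM against 36.9 and 38.5 CPM.

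The unmatched 8 h column, which the rule did not use, lay nearer the 1 h columns. It lay above both 1 h columns in 19 of 36 members (52.8%, against 43.3% of all genes), below both in 11 (30.6%, against 34.7%) and between them in 6. It was at least 1.4 times the higher 1 h column only in Ephb4 (25.9 CPM against 12.2 and 13.1) and Ahdc1 (44.6 CPM against 28.1 and 31.8), or 5.56% against 3.57% of all genes. The median member was at 1.06 times its mean 1 h CPM there, and the median of all genes at 1.02. Spry4 was at 111 CPM in this column against 179 and 191 at 1 h, Arc at 13.3 against 18.4 and 21.5, and Hspa8 at 2858 against 3337 and 3059, all below both 1 h columns.

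**Figure D5:**
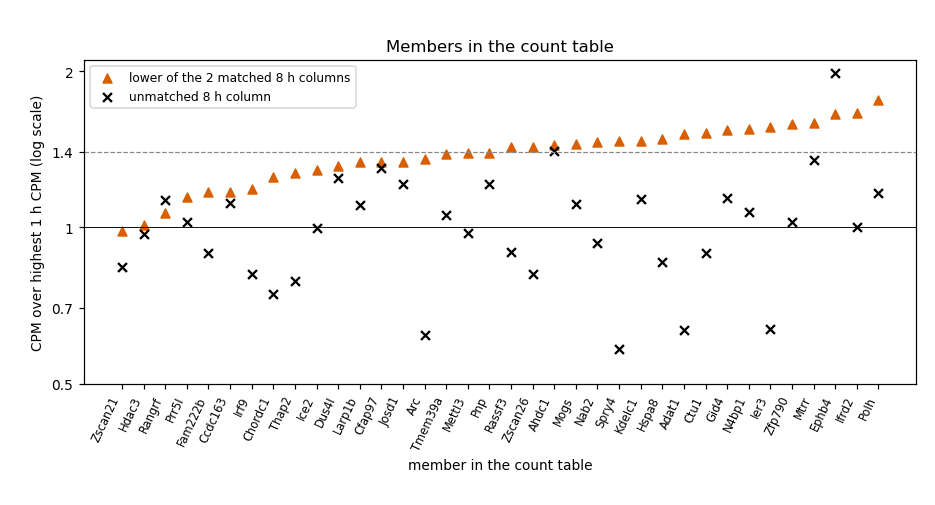
For each of the 36 members in the count table, triangles give the lower of the 2 matched 8 h columns and crosses the unmatched 8 h column, each as CPM over the higher 1 h CPM on a log axis, with lines at 1 and 1.4. Triangles lie above 1 in all but Zscan21, and crosses scatter on both sides of 1, with 19 above both 1 h columns and 11 below both.

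The members had fewer exons and shorter spans than the genes tested, a difference that was not tested. With the longest protein-coding transcript of GENCODE vM21 taken for each gene (87 of 89 members), the median number of exons was 5, against 9 over 9975 genes tested, and the median span of the gene was 14.9 kb against 26.2 kb. The 2614 genes higher in every 8 h library had medians of 9 exons and 25.0 kb. Without the zinc finger group, the members still had a median of 6 exons and 14.8 kb. Transcript length (median 3146 against 3297 bases), coding length (1458 against 1395 bases) and 3′ UTR length (1043 against 1230 bases) differed less. AU-rich ATTTA pentamers stood at 1.31 per kb of 3′ UTR against 1.37. The G and C content of the transcript was 48.9% against 49.98%, and that of the promoter window 58.0% against 62.0%. The zinc finger members (5 exons, 15.4 kb) resembled their own list (5 exons, 16.6 kb).

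Fitted over whole tables, the contrast of 8 h with 1 h gave few calls with all libraries. With limma on log2(TPM + 1), 2 of 13870 genes were called higher (0.0144%) and 4 lower (0.0288%) (Benjamini-Hochberg adjusted p up to 0.05, log2 difference beyond 1 in either direction), and Pagr1a was the only member among them. Since the rule used this contrast, nothing is read from that. Without replicate 14 limma called 573 genes, 417 higher and 156 lower. With edgeR on all 5 count columns, the unmatched column included, 0 of 7590 genes were called (0%), with 199 at an unadjusted p under 0.05, and DESeq2 called 0 with 227. In limma, 1321 genes were higher and 391 lower at an unadjusted p under 0.05. Of 316 zinc finger list genes that are no members, limma called 0 in either direction, with 77 higher and 6 lower at an unadjusted p under 0.05, and edgeR called 0 of 83, with 2 higher and 1 lower. Lists without a member lay on either side of the background. In cholesterol and lipid synthesis 17 of 29 genes (58.6%) were higher in every 8 h library, among solute carriers 48 of 168 (28.6%), and among cytosolic ribosomal proteins 1 of 79 (1.27%), against 25.5% of all genes.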

How the data were processed

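RNA-seq of 5 libraries was analysed (stranded, poly-A selected). The labels gave each library its group and replicate. The authors converted base calls with bcl2fastq 2.19.1.403 per the labels and, with the nf-core/rnaseq pipeline, mapped reads to GRCm38 and counted them by STAR and featureCounts with an Ensembl annotation. For each library they deposited a table per gene with TPM, FPKM and coverage, and for the series a table of whole read counts per gene, described as filtered, with no normalization. For the filter, and for the tool behind the TPM tables, no source used here gives a name. TPM was used for the rule, the deposited FPKM as an alternative, and the deposited coverage only for its ratio to FPKM, which follows depth. TPM sets all libraries to the same total, so a change in a few abundant transcripts (the mitochondrial share, for example) shifts all others. Count columns are assigned by name, with 0 columns unassigned, and cover part of the genes.

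The members, gene lists and named genes were chosen with earlier results of these data known. Named were the 15 members with the largest ratio of lowest 8 h to highest 1 h TPM, the 10 with the highest mean TPM, the 10 most alike and 5 least alike at 8 h, members of gene lists (at most 4 a list) and the 4 on either side of the threshold. Others named beside them were chosen after their values were seen.

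Whole-table fits used limma 3.58.1 (trend, mean TPM of at least 1, log2(TPM + 1)) and edgeR 4.0.16 (quasi-likelihood, TMM, filterByExpr) in R 4.3.3, with Benjamini-Hochberg adjustment, and DESeq2 1.42.0 (alpha 0.1) as an alternative. All were tested on simulated data. The study's methods define a biological replicate of these cells as a separate animal, which the labels do not give per library. Annotation came from GENCODE vM21, whose coordinates were the same for 60 of 89 members, and promoters from RefSeq (GRCm38.p6), matched by symbol. Alternatives were scaling, pseudocounts, filters, thresholds, FPKM, the identifier series, and leaving out each library.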

Additional observations from a re-analysis of the deposited data

How the results depend on the processing

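The number of genes meeting the rule (90) moved with every threshold. It was 438 at a minimum ratio of 1.2, 6 at a ratio of 2, 145 at a mean TPM of at least 1 and 59 at 10. Median-ratio scaling gave 60 (59 of them members) and FPKM 37. With series 1 alone, where replicate 14 is the only 8 h library, 180 genes met it. Leaving out 1 library gave 104 to 1035, the highest without replicate 14, and 287 and 203 without either of the 1 h libraries. CPM of the count table gave 6, and 33 without the unmatched column (chosen after seeing the data, as were the summed gene models and the zinc finger counts). There the mean of at least 5 was taken in CPM, and only 7599 genes are listed, so these counts are not like for like. The median log2 ratio of the members (0.83) was 0.72 after scaling, 0.72 with series 1 alone and 0.80 to 0.89 without any 1 library. In the count table by column name it was 0.50, over only the 36 members listed there and with the unmatched column included. The share of members lowest in replicate 14 was 37.1% after scaling and 46.1% with FPKM. Zinc finger list genes meeting the rule numbered 15 of 90, and 17 to 35 without 1 library, where 104 to 1035 genes met it. Those higher in every 8 h library numbered 123 (47.7% of the list, against 25.5% of all genes). Without 1 library they numbered 132 to 167 (51.8% to 64.2% of the list, against 28.2% to 50.7% of all genes). The limma calls (6) were 0 with no filter, 19 with the identifier series as a term and 0 to 573 without 1 library, with 573 without replicate 14 and 0 without replicate 15 or either 1 h library. No alternative of edgeR called a gene. Of 287 recomputed ratios of 41 named members, 271 stayed within the spread of replicates, 16 moved beyond it and 0 changed direction, which the choice of members largely fixes. The cause of these changes was not tested. No paired analysis was possible because the groups share no replicate number. With 2 and 3 libraries a group and members mostly under 20 TPM, precision is limited.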
